A study of Drosophila melanogaster with 4 samples.

Results

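The Iroquois complex of Drosophila melanogaster is a cluster of 3 homeobox genes, ara (araucan), caup (caupolican) and mirr (mirror), at cytological position 69C-D on chromosome arm 3L. Enriched H3K27me2 regions in and around it were taken from ChIP-seq of wild-type Oregon-R embryos aged 14 to 16 h. The complex was defined by position, as FlyBase release 5 positions 12560000 to 12710000 of 3L, with 200 kb on each side as flanks. Its bounds use no measured value, but the window was chosen with earlier results of these data known. In this 150 kb window lay 2 of the 12968 regions of ChIP replicate 1, 3 of the 11483 regions of ChIP replicate 2 and 4 of the 17184 regions of the list that the authors made for the replicate set, called the combined list here.

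The antibody Ab24684 was used for 2 ChIP samples, and 2 input samples accompany them, all from embryos of the same strain, genotype and stage, so there is no second condition. Embryos were crosslinked in 1.8% formaldehyde, and chromatin was left with antibody for 15 h. The deposited lists give positions and a score for each region but no read counts, so the depth is unknown. A stretch without a region is therefore called uncalled, not unmarked, and whether reads could be placed in it was not tested. The samples came from whole embryos, in which a mark lost from some cells and a mark lowered in all cells cannot be told apart. Separate embryo collections for the ChIP samples are not stated in the labels, so their spread may be technical.

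Lysine 27 of histone H3 is methylated by Polycomb repressive complex 2, which adds methyl groups one after another. The dimethyl form is widespread in euchromatin, whereas the trimethyl form is concentrated in broad domains over developmental genes that Polycomb keeps silent, and the Iroquois complex is a known Polycomb target in the fly. The trimethyl form was not measured in the samples used here. All members encode transcription factors with a TALE-class homeodomain. The products of ara and caup act in the prepattern of the wing disc and activate proneural genes of the achaete-scute complex, and mirr patterns the dorsal eye and the follicle cells of the ovary.

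All 3 members were found in the RefSeq gene table of release 6, as ara (CG10571), caup (CG10605) and mirr (CG10601). In that table no gene lies between ara and caup, and the 4 genes between caup and mirr are all long non-coding RNAs. The gene named sowah lies before ara, with the long non-coding RNA CR43612 next to ara, and SmD1 and Ptp69D follow mirr. Gene positions of release 6 were not placed on release 5, so no covered share was computed for ara, caup or mirr alone, and no region below was assigned to an exon, an intron or a promoter.

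The window of the Iroquois complex was nearly empty of called H3K27me2, while both flanks held called regions. On the right, no list had a region in the first 57.2 kb past the end of the window. Enriched regions covered 1.60% of the window in replicate 1 and 3.40% in replicate 2, which is 2393 bp and 5094 bp. The mean of the ChIP replicates was 2.50% ± 1.27 for the window (SD, n = 2), against 16.2% ± 4.73 for the flanks together (SD, n = 2). In the combined list, the window had 5.29% of its length in regions, against 30.8% of the flanks. Both replicates and the combined list placed the window below each flank, and the highest share of the window in a replicate lay below the lowest share of a flank in a replicate.

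**Figure D1:**
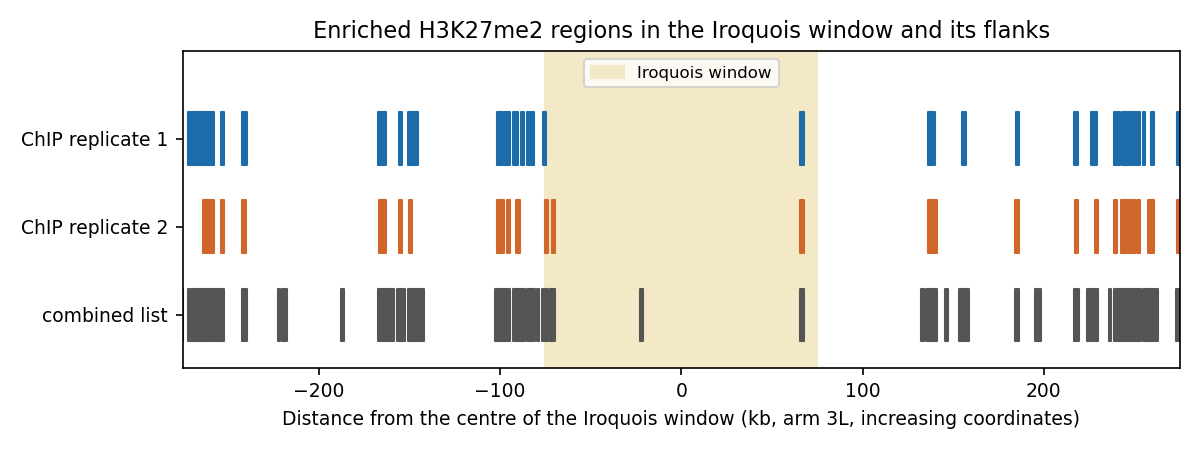
Enriched H3K27me2 regions (bars) in ChIP replicate 1, ChIP replicate 2 and the authors' combined list, by distance in kb from the centre of the Iroquois window, which is shaded; the plot ends with the 200 kb flanks. The shaded window holds 2, 3 and 4 regions in the 3 lists from top to bottom, and regions of all 3 overlap near its right end and, by 469 bp in the replicates, at its left edge.

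The left flank had 23.4% of its length covered in replicate 1 and 13.0% in replicate 2, and the right flank had 15.7% and 12.7%. The window minus both flanks was -18.0 percentage points in replicate 1 and -9.47 points in replicate 2, a mean of -13.7 ± 6.01 (SD, n = 2). Against the left flank alone the mean difference was -15.7 ± 8.63 points, and against the right flank alone it was -11.7 ± 3.38 points (SD, n = 2 each). The difference was thus larger than its spread between replicates on either side, but with 2 replicates the smallest two-sided p of an exact sign-flip permutation test is 0.5, and none was computed. The share of the window without replicate 1 is 3.40% and without replicate 2 is 1.60%.

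The flanks were themselves covered less than the arm. Of arm 3L as a whole, regions took up 29.2% in replicate 1 and 23.1% in replicate 2, and 46.7% by the combined list. The mean difference of the window from the arm was -23.7 ± 5.56 points (SD, n = 2). In the flanks together, replicate 1 had 28 regions with a median width of 2049.5 bp, and replicate 2 had 21 regions with a median of 2013 bp. These widths were near those of the arm, 2107 bp in replicate 1 and 2005.5 bp in replicate 2.

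**Figure D2:**
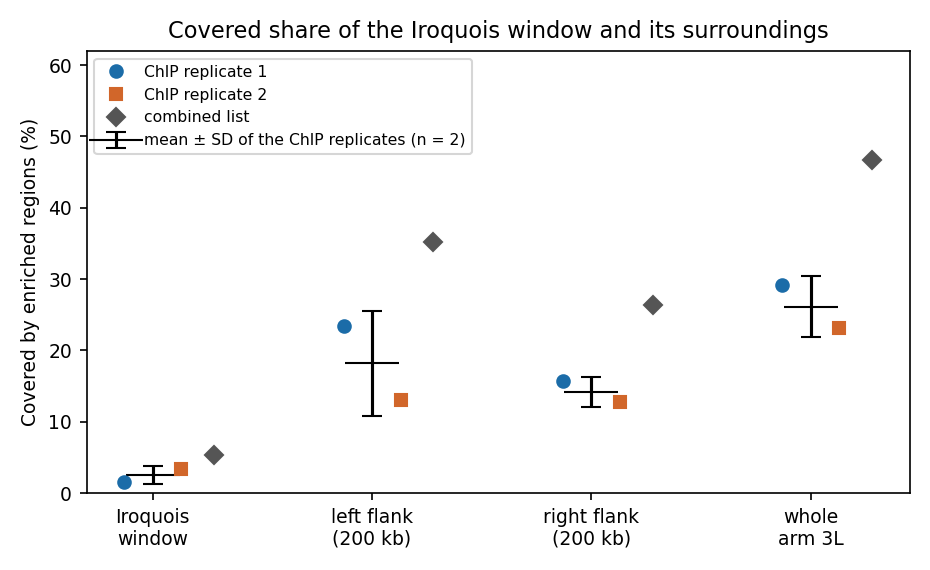
Percent of sequence in enriched H3K27me2 regions (y axis) for the Iroquois window, each 200 kb flank and the whole of arm 3L, as 1 point per ChIP replicate and 1 for the combined list; bars are the mean ± SD of the ChIP replicates (n = 2). The window has 1.60% and 3.40% in the replicates, and every point of a flank or of the arm lies at 12.7% or higher.

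Set against all windows of its length on 3L, the Iroquois window stood near the low end. Windows in 1 kb steps numbered 24394, and they overlap, so their ranks are a description without a p-value. In replicate 1, 1.24% of windows had a lower or equal share, and the median window had 27.9% covered. In replicate 2, 2.71% of windows had a lower or equal share, and the median window had 22.1% covered. In the combined list, 0.562% of windows did, with a median of 47.1%. Regions were also few in number, with 2 regions in the Iroquois window against a median of 16 per 3L window in replicate 1, 3 against 15 in replicate 2 and 4 against 21 by the combined list. The Iroquois window was not the lowest of the arm in any list, since windows with 0 bp covered numbered 120 in replicate 1 and 102 in replicate 2, and the lowest window of the combined list had 1.49%.

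**Figure D3:**
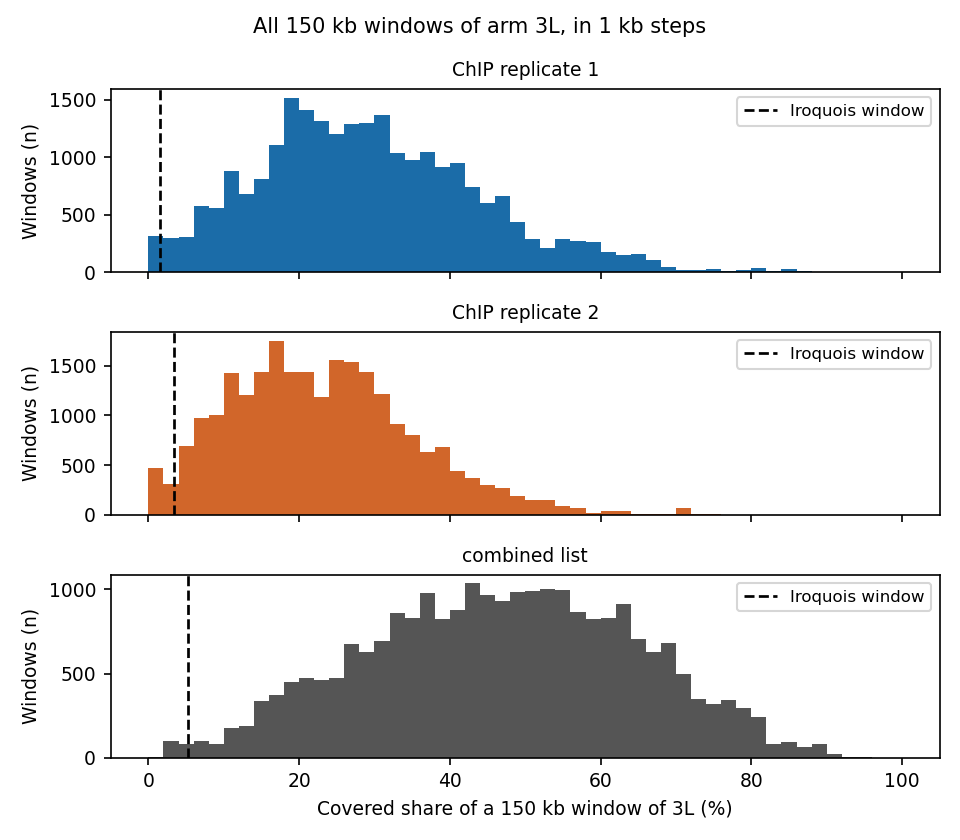
Number of 150 kb windows of arm 3L, taken in 1 kb steps (y axis), by the percent of their length in enriched regions (x axis), for each ChIP replicate and the combined list. The dashed line marks the Iroquois window, at 1.60%, 3.40% and 5.29% from top to bottom, in the left tail of each distribution.

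In bins of 10 kb, none of the 15 bins of the Iroquois window was covered to at least 50% in any of the 3 lists. On all of 3L, 23.7% of 2454 bins reached that share in replicate 1, 16.2% in replicate 2 and 47.8% by the combined list. The 40 bins of the flanks held 7 such bins in replicate 1, 3 in replicate 2 and 11 by the combined list. The fullest bin of the window had 18.3% covered in replicate 1, 33.4% in replicate 2 and 39.9% by the combined list.

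Bins without a single covered base were counted after the data had been seen. In the window they numbered 13 of 15 in replicate 1 and 13 of 15 in replicate 2, against 28.6% and 35% of all 3L bins. No base of either replicate was covered in 13 of the 15 bins, against 24.4% of 3L bins. The combined list left 12 of the 15 bins without a covered base, against 15.9% of 3L bins, and all 3 lists together also left 12, against 15.8%. In the flanks, 19 of 40 bins were without a covered base in replicate 1 and 23 of 40 in replicate 2. The combined list left 14 of these 40 without one, and all 3 lists together also left 14, so empty bins were more frequent there than on 3L too.

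The few regions within the window lay at its left edge and near its right end, with a single exception in the combined list. At the left edge, replicate 1 had a region of 2032 bp on 3L from 12558531 to 12560562, of which only 563 bp lay inside the window. Replicate 2 had regions of 1459 bp from 12560094 to 12561552 and of 1877 bp from 12563442 to 12565318. The edge region of replicate 1 shared 469 bp with the first of these, so this place was called in all 3 lists. The second had no counterpart in replicate 1, and the combined list held both places, as regions from 12558084 to 12561428 and from 12562732 to 12565290.

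Near the right end, 1 region was called at nearly the same bounds in all 3 lists. It spanned 1830 bp from 12700772 to 12702601 in replicate 1, 1758 bp from 12700689 to 12702446 in replicate 2, and 2229 bp from 12700444 to 12702672 in the combined list. The replicates placed its start 83 bp apart and its end 155 bp apart, and they shared 1675 bp, which is 91.5% of the region in replicate 1 and 95.3% of that in replicate 2. Within 10 kb on either side of it no list held another region, so it stood alone, and it is called the isolated region here.

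The score of a region is the authors' own and its scale is not named, so it was read only as a rank within its list. The isolated region scored 0.511 in replicate 1, at percentile 30.6 of that list, and 0.578 in replicate 2, at percentile 29.6. In the combined list its score was 0.553, at percentile 79.7. It was thus in the lower part of each replicate list by score and by width (percentiles 32.9 and 35.6), and it was called in both. By width it stood at percentile 48.3 of the combined list. How often regions of such rank were called in both replicates was not computed. The left-edge regions ranked at percentile 44.9 by score in replicate 1 and at 5.65 and 62.6 in replicate 2.

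A further region was in the combined list alone, 1721 bp on 3L from 12612126 to 12613846, with its score at percentile 39.8. Neither replicate had a region there. The combined list was the longest on 3L, with 3303 regions against 2559 in replicate 1 and 2290 in replicate 2. How many of its regions lacked a replicate region was not counted. Taking away 20 kb at each end of the window leaves 110 kb, from 12580000 to 12690000. Neither replicate had any covered base in these 110 kb, and the combined list had only the region of 1721 bp, 1.56% of the length. On 3L, 185 of 24434 windows of 110 kb had 0 bp covered in both replicates. They fell into 5 separate stretches, and the Iroquois complex was 1 of them. The stretches from 23249001 to 23389001 and from 23546001 to 23670001 lay in the proximal 2 Mb of the arm.

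Between these regions, 3 uncalled stretches of at least 10 kb, without a region in any of the 3 lists, lay in or across the window, and they took up 93.8% of it. Such stretches made up 29.2% of 3L. The longest ran for 86597 bp from 12613847 to 12700443, ranked 3 among the 3256 uncalled stretches of 3L and 23 among the 15254 of the 5 major arms. Before it, 46807 bp were uncalled from 12565319 to 12612125, at rank 19 on 3L. After the isolated region, 64513 bp were uncalled from 12702673 to 12767185, at rank 8 on 3L, and most of this stretch lay beyond the window in the right flank. The median uncalled stretch of 3L was 1331 bp.

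**Figure D4:**
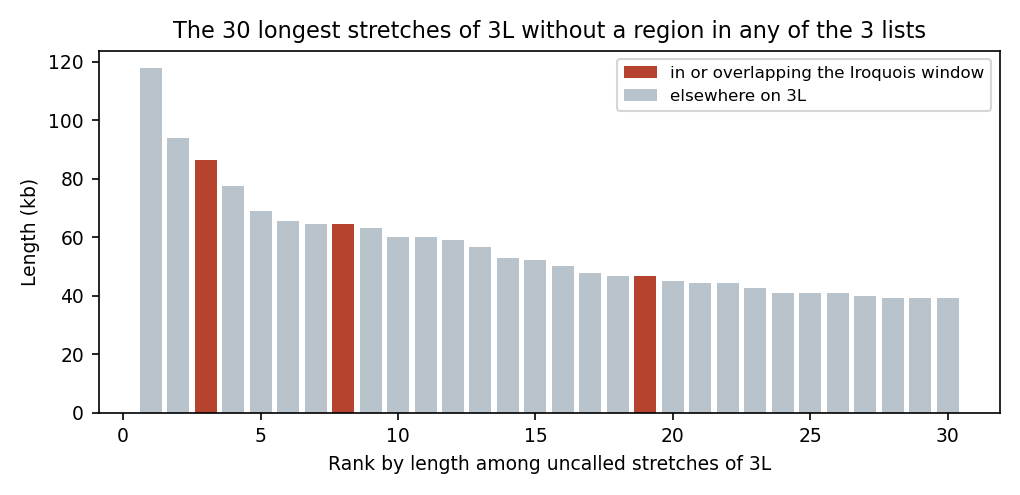
Length in kb (y axis) of the 30 longest stretches of arm 3L without a region in any of the 3 lists, by rank (x axis); coloured bars lie in or across the Iroquois window. Ranks 3, 8 and 19 are the stretches of 86.6, 64.5 and 46.8 kb on either side of the combined-list region and the isolated region.

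With replicate lists alone, the middle of the window was uncalled without a break. No region of either replicate lay in the 135370 bp from 12565319 to 12700688, the fourth longest such stretch of 3L. In replicate 1 the uncalled stretch reached 140209 bp, from 12560563 to 12700771.

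The sparse sequence did not end with the window. From 12565319 to 12767185, a span of 201.9 kb whose bounds were chosen after seeing the data, replicate 1 and replicate 2 each had only the isolated region, and the combined list had 2 regions covering 1.96%. The span passed the right end of the window by 57.2 kb. Its bounds are edges of called regions, so some covered sequence just outside both ends follows from how it was drawn. In the 10 kb before the span, replicate 1 had 20.3% covered, replicate 2 had 33.4% and the combined list had 72.4%, and in the 10 kb after it the shares were 43.0%, 40.9% and 79.4% in the same order. Over 30 kb, the shares were 50.8%, 31.9% and 79.1% before the span, and 21.0%, 13.6% and 47.0% after it. Over 50 kb, they were 34.4%, 22.9% and 53.7% before it, and 12.6%, 8.18% and 28.2% after it.

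In the left flank the widest region of replicate 1 spanned 7608 bp from 12362757 to 12370364, and that of replicate 2 spanned 6045 bp from 12371292 to 12377336. In the combined list it was a region of 8537 bp from 12532210 to 12540746. In the right flank the widest regions of the 3 lists lay at the same place, spanning 4904 bp from 12877908 to 12882811 in replicate 1, 4658 bp from 12877852 to 12882509 in replicate 2 and 7727 bp from 12877780 to 12885506 in the combined list. By score within its list, this region stood at percentile 76.0 in replicate 1, at 98.8 in replicate 2 and at 92.8 in the combined list.

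What little was called in the window overlapped in part between the replicates. Of the 5343 bp of the window covered in 1 replicate or the other, 2144 bp were covered in both, a ratio (Jaccard index) of 0.401. It was 0.555 in the flanks together and 0.511 on the whole arm. The value of the window stood at percentile 27.3 of the 3L windows with any covered base, whose median was 0.496. It rests on 5 regions, and the isolated region supplied most of the shared sequence.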

How the data were processed

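Each ChIP sample has a deposited list of significantly enriched regions, and 1 further deposited list covers the replicate set. The authors' score is given for every region in the deposited lists, on a scale that no header states. Coordinates are those of FlyBase release 5, per the file headers, counted from 1. The submitters' processing notes list Bowtie 0.12.7. The region caller, the threshold and the pooling behind the combined list were not given in the sources used here. Inputs entered no comparison made here.

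To obtain a covered share, the bases of an interval lying in any region of a list were counted once and divided by its length. Windows of the same length were taken on 3L in 1 kb steps. Bins of 10 kb were counted from the first base of the arm, and partial bins were left out. The window, the genes and the comparisons were chosen with earlier results of these data known. All regions in the window, the widest of each flank and uncalled stretches of at least 10 kb were eligible to be named. Percentiles count ties as lying midway. The interval code (Python 3.11.15 with numpy 2.4.6 and pandas 2.3.3) was checked on simulated data, and plots were drawn with matplotlib 3.10.9.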

Additional observations from a re-analysis of the deposited data

How the results depend on the processing

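The window lay below its flanks under every alternative run, with a mean difference from -25.5 points (combined list) to -9.38 points (only regions that reached their list's median score), and from -18.0 to -9.47 with either replicate left out. The covered share of the window was 0.626% with the median-score threshold, 5.29% in the combined list, 0% with the window 20 kb shorter at each end and 5.49% with it 20 kb longer, and 1.60% to 3.40% with either replicate left out. Its mean percentile among 3L windows was 1.97. It became 3.02 with the median-score threshold, 0.562 in the combined list and 0.931 without the proximal 2 Mb of 3L. It was 0.696 with the shorter and 3.73 with the longer window, and 1.24 to 2.69 with either replicate left out. With the shorter window both replicates had 0% covered, so no window could be lower, and the percentile reflects only tied windows. The same held for replicate 1 with the median-score threshold. The Jaccard index was 0 with the median-score threshold, by construction, since both regions of replicate 1 in the window scored below the median of its list. The longest uncalled stretch was 135125 bp with that threshold, 140209 bp in replicate 1 alone and 135370 bp in replicate 2 alone. The longer window takes in called sequence of the left flank; other causes were not tested. Merging regions or taking equal numbers of top-scoring regions moved the covered share, the difference from the flanks and the percentile by less than the spread between replicates and left the Jaccard index as it was; neither was run for the longest uncalled stretch. No paired analysis was possible because no input list was analysed, and per the labels each ChIP sample was set against the input of the other number. A Jaccard index needs both replicates. The lists hold no read counts, so the part of depth in uncalled sequence was not tested.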

Other observations

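Other places on 3L were as sparse as the Iroquois window in both replicates. Windows of 150 kb at or below its share in each replicate numbered 298 and merged into 7 separate stretches, 4 of them outside the proximal 2 Mb of the arm. The stretch holding the Iroquois complex ran from 12560001 to 12771001, with 1.17% (replicate 1) and 2.41% (replicate 2) covered, and 5.00% by the combined list. The other 3 outside the proximal end ran from 10211001 to 10372001, from 18226001 to 18445001 and from 19790001 to 19965001. In the replicates these had between 0.382% and 2.97% covered, but in the combined list they had 12.6%, 16.7% and 9.19%. The 3 in the proximal 2 Mb had 7.92%, 4.82% and 8.19% in the combined list, so the stretch from 23232001 to 23390001, at 4.82%, lay slightly below that of the Iroquois complex. These comparisons were made after seeing the data and were not tested. The genes in these other stretches were not placed.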
